A study of Mus musculus with 12 samples.

Results

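The measurements concern 6 genes that pattern the ventral neural tube: Foxa2, Dbx1, Foxa1, Nkx2-2, Nkx6-1 and Shh. They were taken from the array by exact gene symbol, and all 6 were found, in 7 probe sets among 45101 (6 of 18194 genes with a kept probe set). The set was drawn up with earlier results of these same arrays known, and is treated here as chosen by the difference of Foxa2 and Dbx1 between SmoM2 and wild type cells. The levels by genotype are therefore given as a description, with no p-value for these 6 genes, and the counts of them that passed are printed with nothing read from them.

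The study profiled granule cell progenitors (GCPs), the dividing precursors of cerebellar granule neurons, in mice at postnatal day 8. There were 4 groups of 3 arrays each: SmoM2 hemisphere, SmoM2 vermis, wild type hemisphere and wild type vermis. SmoM2 animals carried an activated form of Smoothened fused to YFP at the Rosa26 locus (R26LSL-SmoM2-YFP), released from its stop cassette by Atoh1-CreER after 200 µg of tamoxifen per g at postnatal day 2. The labels do not record tamoxifen for the wild type mice. All mice were of a mixed C57BL/6 and Swiss Webster background, cells came from a Percoll gradient, and every array was a pool of 5 mice, so the arrays do not show the spread between animals. Since the driver acts in cells that use Atoh1, other cells of the fraction need not carry the active allele.

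In the embryonic neural tube, Sonic hedgehog (Shh) released by the notochord and the floor plate sets up ventral progenitor domains by its concentration. Foxa2, a forkhead factor, marks the floor plate and is there a direct target of Gli factors, while Foxa1 is its close relative. Nkx2-2 and Nkx6-1 are homeodomain factors of the ventral domains, and Dbx1 marks an intermediate domain that yields V0 interneurons. In the postnatal cerebellum, Purkinje cells are the source of the Shh that drives granule cell progenitors to divide.

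Both genes with the clearest signal lie on the minus strand, Foxa2 on chromosome 2 (148042877 to 148046969) and Dbx1 on chromosome 7 (49631499 to 49636835) of GRCm38.p6. Since both were higher in SmoM2 cells, the 300 bases around the annotated start of each gene are shown, 250 before it and 50 after it, from RefSeq on GRCm38.p6. The Foxa2 window is chr2:148046920-148047219 and the Dbx1 window chr7:49636786-49637085, both written 5′ to 3′ on the strand of the gene. Capitals mark TATAAA, the TATA box.
Foxa2: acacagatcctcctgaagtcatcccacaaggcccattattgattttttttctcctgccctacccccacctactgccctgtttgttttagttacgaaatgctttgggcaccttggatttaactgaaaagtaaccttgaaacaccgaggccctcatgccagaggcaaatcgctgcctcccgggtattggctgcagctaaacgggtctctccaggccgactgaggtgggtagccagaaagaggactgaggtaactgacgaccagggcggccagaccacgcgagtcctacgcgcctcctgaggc
Dbx1: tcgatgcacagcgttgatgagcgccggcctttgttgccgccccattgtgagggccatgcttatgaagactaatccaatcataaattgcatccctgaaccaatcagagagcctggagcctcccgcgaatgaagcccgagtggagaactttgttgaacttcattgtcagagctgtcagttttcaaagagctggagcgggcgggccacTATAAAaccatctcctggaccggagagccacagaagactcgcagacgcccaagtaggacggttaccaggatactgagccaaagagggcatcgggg
TATAAA stood in the Dbx1 window, beginning 45 bases before the start, and was not in this Foxa2 window on either strand. Another Foxa2 window, not shown, held it on the other strand (TTTATA), 208 bases before the start of that window's transcript. On either strand, 13.6% of 32851 promoter windows held it. The letters GACCACCCA, a consensus for Gli factors, were in 0 of the 7 windows of 5 of these genes on either strand (3 of the windows belong to Foxa2, and Shh is named only). They were in 0.253% of all windows. A Foxa motif, TGTTTAC, was found on either strand in 3.65% of all windows and, among these genes, in that of Foxa1.

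Values are log2 expression made with RMA (robust multi-array averaging), which yields no detection call. A level was therefore called near background when the mean of a group lay under the 95th percentile of 74 chemosensory receptor genes, which these cells are not known to use. That level was 4.25 in SmoM2 hemisphere, 4.12 in SmoM2 vermis, 4.48 in wild type hemisphere and 4.39 in wild type vermis. Near background were 3, 3, 5 and 4 of the 6 genes in the same order. The background level was thus lower in SmoM2 than in wild type in each region, as was the median of the receptor genes. That median was 2.75 and 2.7 in SmoM2 hemisphere and vermis, against 2.89 and 2.88 in wild type. The part of this shift in the falls of dim genes was not tested. RMA compresses differences at low signal, so a fold change from a level near background can understate a change. Where both levels lie near background, a small difference need not be a change of the gene.

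Foxa2 was clearly present in SmoM2 cells, and its group means in wild type cells of both regions were near background. Its log2 level was 6.72, 7.06 and 6.90 in SmoM2 hemisphere and 8.12, 8.13 and 7.88 in SmoM2 vermis. The wild type hemisphere arrays had 4.55, 3.90 and 4.32, and the wild type vermis arrays 3.56, 4.54 and 4.63. Their means lay 0.22 and 0.14 under the background level, with single arrays above it in both regions. Neither mean lay below the lower quartile of all probe sets. Every SmoM2 array lay above every wild type array, and every SmoM2 vermis array above every SmoM2 hemisphere array, whereas the wild type regions overlapped. Within its array, Foxa2 stood at the 71.4th to 74.9th percentile of all probe sets in SmoM2 hemisphere and at the 83rd to 84.9th in SmoM2 vermis. In wild type arrays it stood between the 29.4th and the 46.7th.

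The difference in Foxa2 between SmoM2 and wild type was 2.64 on the log2 scale in the hemisphere (6.22-fold, SE 0.24, n = 3 arrays each) and 3.80 in the vermis (13.9-fold, SE 0.24). Among 18194 genes these were the 24th and the 3rd largest differences. The means were 6.90 ± 0.17 in SmoM2 and 4.26 ± 0.33 in wild type hemisphere, and 8.04 ± 0.14 in SmoM2 and 4.24 ± 0.60 in wild type vermis (SD, n = 3 each). In a bulk sample, more cells with a transcript and more transcript per cell cannot be told apart.

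Dbx1 followed the same order of groups at lower levels. It read 5.94, 5.65 and 6.52 in SmoM2 hemisphere and 7.23, 7.18 and 7.27 in SmoM2 vermis. The wild type hemisphere arrays had 4.52, 4.26 and 4.50, and the wild type vermis arrays 4.35, 4.59 and 4.43. The lowest SmoM2 array exceeded the highest wild type array by 1.06, and the lowest SmoM2 vermis array exceeded the highest SmoM2 hemisphere array by 0.66. The difference from wild type was 1.61 in the hemisphere (3.05-fold, SE 0.17, n = 3 arrays each) and 2.77 in the vermis (6.83-fold, SE 0.17), the 99th and the 20th largest of all genes. Wild type levels lay 0.05 under the background level in the hemisphere and 0.07 above it in the vermis. They were thus at that level in both regions. The Dbx1 probe set rests on an expressed sequence tag and is the only one of the gene here.

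**Figure D1:**
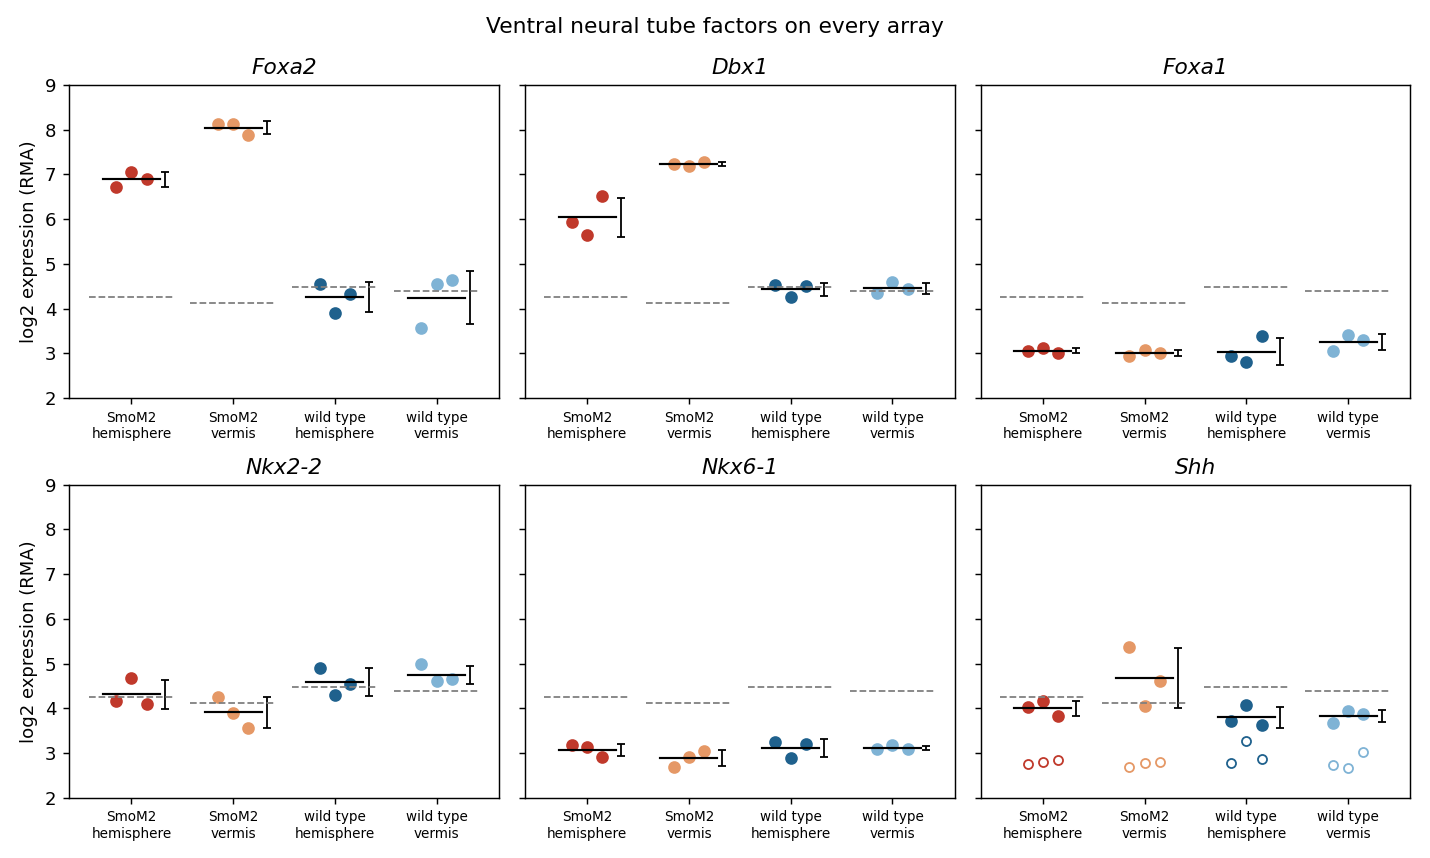
Log2 expression of the 6 genes on the 12 arrays, with a filled point per array, a line for the mean, a bar for the SD of 3 arrays and a grey dashed line for the background level of the group. Open points in the Shh panel are its dimmer probe set. Foxa2 and Dbx1 stand above the dashed line in both SmoM2 groups and near it in wild type, and Foxa1 and Nkx6-1 stay below it in all 4 groups.

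Foxa1, which shares the forkhead domain with Foxa2 and is expressed with it in the floor plate, stayed near background. Its arrays ranged from 2.94 to 3.11 in SmoM2 and from 2.80 to 3.40 in wild type, and the genotypes overlapped in both regions. Nkx6-1, a homeodomain repressor of the ventral progenitor domains, ranged from 2.69 to 3.17 in SmoM2 and from 2.89 to 3.25 in wild type. Both genes lay below the lower quartile of all probe sets in each of the 4 groups, at 3.26 to 3.38. The SmoM2 difference was 0.02 and -0.24 for Foxa1 and -0.05 and -0.23 for Nkx6-1 in hemisphere and vermis. At such levels a rise too small to leave the background would not be seen.

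Nkx2-2, a factor of the most ventral neuronal progenitors that oligodendrocytes also use as they mature, was not higher in SmoM2. It read 4.17, 4.67 and 4.09 in SmoM2 hemisphere against 4.91, 4.30 and 4.55 in wild type hemisphere, and these groups overlapped. It read 4.26, 3.90 and 3.56 in SmoM2 vermis against 4.98, 4.60 and 4.65 in wild type vermis, without overlap. The differences were -0.28 (SE 0.20) in the hemisphere and -0.84 (SE 0.20) in the vermis. The means of all 4 groups lay within 0.36 of the background level.

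Myelin genes, which mark mature oligodendrocytes, were lower in SmoM2 beside Nkx2-2, while genes of oligodendrocyte precursors went both ways. All 5 measured myelin genes fell in each region, with Mbp (myelin basic protein) at -1.39 and -1.81 in hemisphere and vermis by limma (adjusted p = 0.000558 and 4.94e-05). The mean log2 level over these 5 genes was 7.49 to 8.23 in SmoM2 and 9.27 to 9.39 in wild type hemisphere, and 7.94 to 8.50 in SmoM2 and 9.68 to 10.27 in wild type vermis. Of 6 genes of oligodendrocyte precursors, 2 rose and 2 fell in each region. Their mean log2 level was 7.29 to 7.68 in SmoM2 and 6.97 to 7.25 in wild type hemisphere. In the vermis it was 7.11 to 7.37 in SmoM2 and 7.32 to 7.45 in wild type. Gpr17, a receptor of maturing precursors, fell by 1.03 and 1.83 (limma adjusted p = 0.00437 and 3.86e-05), and Sox10, a factor of the whole lineage, fell, at -0.76 and -1.34 (limma, adjusted p = 0.00343 and 3.14e-05), while Olig1 and Olig2 rose. Pdgfra, the brightest of the precursor genes (-0.30 and -0.18), and Cspg4 (-0.07 and -0.21) did not pass. Pdgfra passed downward in the hemisphere under renewed quantile normalization (limma adjusted p = 0.0432) and with another moderation (0.0453). The part of oligodendrocytes and their precursors in the Nkx2-2 difference was not tested.

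Shh, the ligand, had 2 probe sets that differed in behaviour. The brighter read 4.03, 4.16 and 3.82 in SmoM2 hemisphere and 5.37, 4.05 and 4.61 in SmoM2 vermis. The wild type hemisphere arrays had 3.71, 4.07 and 3.63, and the wild type vermis arrays 3.68, 3.93 and 3.87. SmoM2 vermis thus lay above wild type vermis on all 3 arrays, and the hemisphere groups overlapped. The dimmer probe set, built on an mRNA record where the brighter rests on a sequence tag, ranged from 2.68 to 2.84 in SmoM2 and from 2.67 to 3.26 in wild type, with no array standing out.

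The SmoM2 difference of the brighter Shh probe set was 0.20 in the hemisphere and 0.85 (SE 0.24, n = 3 arrays each) in the vermis. It was 0.50 in the vermis without SmoM2 vermis replicate 1, the array at 5.37. The dimmer probe set differed by -0.18 and -0.06, and the mean of both by 0.39 in the vermis. The transcript position of either probe set was not used here. Among 5 measured markers of Purkinje cells, the known source of Shh in this tissue, Car8 and Ppp1r17 were near background in all 4 groups. Of the 5, 1 rose in each region, Pvalb, at 0.78 and 0.45 (limma adjusted p = 0.0012 and 0.0319), and 0 fell. The vermis call of Pvalb ended under renewed quantile normalization and without wild type vermis replicates 1 or 3 or any SmoM2 vermis array (0.0521 to 0.108). In the vermis Pcp2 (-0.56, 0.0505) and Car8 (-0.59, 0.0662) passed downward under 6 and 4 of the alternatives, with limma adjusted p down to 0.00466 and 0.0109. Both also passed downward in the hemisphere without SmoM2 hemisphere replicate 2 (0.0293 and 0.0115). Calb1 instead passed upward in the hemisphere without SmoM2 hemisphere replicate 1 (0.82, limma adjusted p = 0.00777), against 0.40 (0.322) with all arrays. The mean level of the 5 was 4.11 to 4.71 in SmoM2 hemisphere and 4.38 to 4.62 in SmoM2 vermis, against 4.19 to 4.33 in wild type hemisphere and 4.60 to 4.70 in wild type vermis.

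By limma across all genes, 2694 of 18194 genes (14.8%) passed between SmoM2 and wild type in the hemisphere at an adjusted p under 0.05, and 3096 (17%) in the vermis. Of the 6 genes, 2 passed for the hemisphere and 4 for the vermis, and groups did not overlap for 2 and 5 of them, against 31.7% and 39.8% of all genes. As these contrasts were known when the genes were chosen, nothing is read from these counts.

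The difference between the regions was tested within each genotype. In SmoM2 progenitors, Dbx1 was lower in the hemisphere than in the vermis, with a log2 difference of -1.19 (2.29-fold lower, SE 0.17, 95% interval -1.56 to -0.83). It passed by limma (adjusted p = 0.0128), as 1 of 11 genes of 18194 (0.0605%). Whether this contrast too played a part in the choice of Dbx1 is not known here, so the call is not independent support. The 3 numbered pairs of SmoM2 hemisphere and vermis arrays differed by -1.29, -1.54 and -0.75. As these groups did not overlap, any pairing of their arrays would differ in this direction.

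The call for Dbx1 rested on few arrays. The limma adjusted p was 0.129 once SmoM2 hemisphere replicate 1 was left out and 0.0674 once replicate 2 was. Leaving out replicate 1, 2 or 3 of SmoM2 vermis gave 0.0909, 0.0845 and 0.0757, and a fit to only the 2 groups compared gave 0.0798. Over all alternatives run the adjusted p ranged from 0.000511 to 0.129 and the difference from -1.44 to -1.0.

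Foxa2 differed between SmoM2 regions by about as much, -1.15 (SE 0.24, 95% interval -1.65 to -0.64), with numbered pairs at -1.40, -1.07 and -0.98. It was the 9th lowest difference of all genes, but did not pass by limma (adjusted p = 0.19), where its wide spread in wild type vermis (SD 0.60) entered the shared error. It passed without wild type vermis replicate 1, the array at 3.56 (adjusted p = 0.0134), with only the groups compared (0.0112), and with the numbered pair of a genotype as a random block (0.0473). With that pair as a fixed block the adjusted p was 0.232, and over all alternatives it ranged from 0.0112 to 0.803. Groups did not overlap for Foxa2 and Dbx1, against 10.7% of all genes.

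The other 4 genes did not pass in SmoM2 by region. Shh was at -0.67 (95% interval -1.19 to -0.16, limma adjusted p = 1), Nkx2-2 at 0.40 (-0.03 to 0.83), Nkx6-1 at 0.19 (-0.08 to 0.45) and Foxa1 at 0.05 (-0.25 to 0.35). In wild type, 0 of the 6 genes passed by limma, 0 had an unadjusted p under 0.05, and 34 of all genes (0.187%) passed. Groups overlapped for all 6, against 8.76% of all genes without overlap. There, the difference between hemisphere and vermis was 0.01 for Foxa2 (-0.49 to 0.52) and -0.03 for Dbx1 (-0.39 to 0.34). A regional difference of these genes in wild type would have to show at levels near background.

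**Figure D2:**
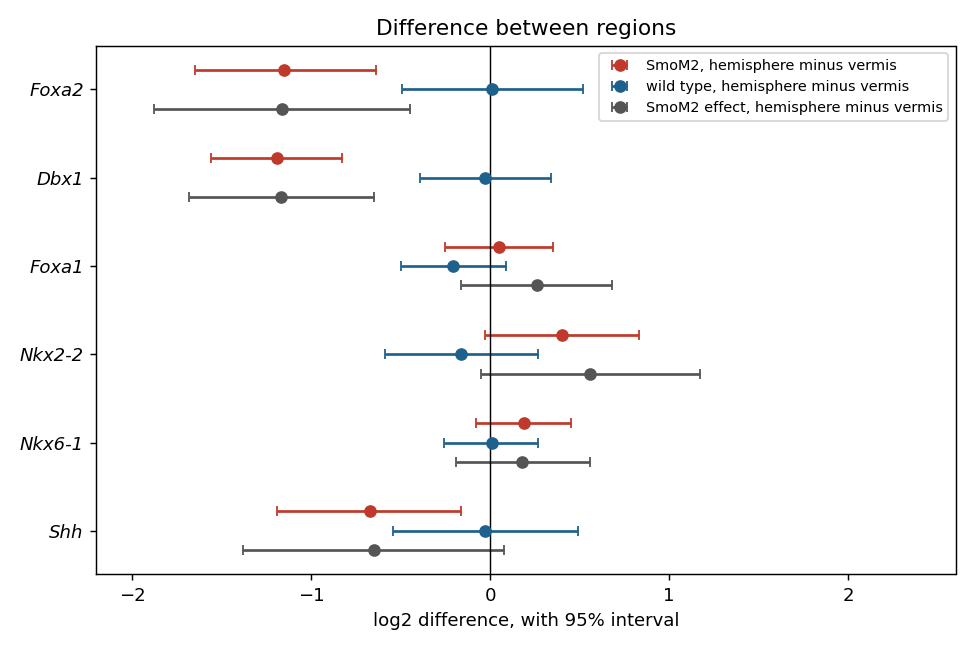
Hemisphere minus vermis on the log2 scale for each gene in SmoM2 (red) and in wild type (blue), and the SmoM2 effect in the hemisphere minus that in the vermis (grey). Points are estimates from 3 arrays per group and bars are 95% intervals from limma. The red points of Foxa2 and Dbx1 lie near -1.15 and -1.19, and their blue points near 0.

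Whether SmoM2 acted differently by region was tested as an interaction, and 0 of 18194 genes passed by limma (0%), with 564 at an unadjusted p under 0.05. The SmoM2 effect in the hemisphere minus that in the vermis was -1.16 for Foxa2 (SE 0.33) and -1.17 for Dbx1 (SE 0.24). Since this is the difference of the contrasts that are treated as having chosen these genes, with wild type levels near background, it is given as a description, and neither passed. Without SmoM2 hemisphere replicate 3, where Dbx1 was highest of its group, the adjusted p of Dbx1 was 0.0372. That value is no independent support either. In that fit Dbx1 was the 1 gene called, and the other alternatives called 0 genes.

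All 3 measured readouts of the pathway rose in both regions, with nearly equal levels in SmoM2 hemisphere and vermis. Gli1, a transcription factor and target of the pathway, rose in SmoM2 by 1.68 ± 0.14 in hemisphere and 1.5 ± 0.14 in vermis (SE, n = 3 arrays per group; limma adjusted p = 2.52e-06 and 7.84e-06). Between SmoM2 hemisphere and vermis, Gli1 differed by 0.16 (SE 0.14), Ptch1, the hedgehog receptor, by -0.06 (SE 0.10) and Hhip, a membrane protein that binds the ligand, by -0.03 (SE 0.23). In SmoM2, 0 of these 3 passed by region (limma adjusted p = 1 for each). En1, a homeodomain factor of midbrain and hindbrain patterning, was lower in the hemisphere in both genotypes, at -2.61 in SmoM2 (limma adjusted p = 3.07e-06) and -3.08 in wild type (3.35e-07).

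Beyond these readouts, genes of neural tube patterning were read from lists of 61 genes, of which 55 were measured and 23 were near background in all 4 groups. By limma 23.6% of those measured passed for SmoM2 in the hemisphere, 4 upward and 9 downward, where 7.62% of all genes passed upward and 7.18% downward. For the vermis it was 21.8%, with 4 upward and 8 downward, where 7.56% and 9.46% of all genes did. Of 8 floor plate genes, 0 passed in either region. They included the axon guidance cue Ntn1 (0.24 and 0.39, limma adjusted p = 0.28 and 0.081), whose adjusted p in the vermis was 0.0485 and 0.0197 once replicate 1 of wild type hemisphere or of wild type vermis was left out. Corin and Ferd3l, which mark the midbrain floor plate, were near background throughout, as were Lmx1b and Sulf1 of the same list. The median difference of the floor plate list was 0.07 in the hemisphere and -0.03 in the vermis, against -0.053 and -0.059 over all genes.

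None of the 12 paralogs of these genes rose. Nkx2-9, above background in every group (6.23 to 6.72), was at -0.48 and -0.25 (limma adjusted p = 0.053 and 0.289). It passed downward in the hemisphere under renewed quantile normalization (0.0403) and with the replicate number as a block (0.0472). The same held without wild type hemisphere replicate 1 (0.00471). Nkx2-6 (5.47 to 5.78) was also above background, while Nkx2-1 (4.46 to 4.63) and Nkx2-3 (4.46 to 4.75) lay only little above it. None of these passed. Foxa3, Dbx2, Nkx2-5, Nkx6-2, Nkx6-3 and the ligands Ihh and Dhh were near background in every group, and Dbx2, the nearest relative of Dbx1, read 2.31 to 2.37. At these background levels, Nkx2-5 and Dhh fell in the hemisphere by 0.64 and 0.43 (limma adjusted p = 0.0193 and 0.0415). The background level was itself lower there in SmoM2, at 4.25 against 4.48 in wild type. Neither call held in all fits. That of Nkx2-5 ended without wild type hemisphere replicates 2 or 3 or SmoM2 hemisphere replicates 1 or 3, with adjusted p of 0.0674 to 0.0813. That of Dhh ended without any wild type hemisphere array, wild type vermis replicate 3, SmoM2 hemisphere replicates 1 or 3 or SmoM2 vermis replicate 2 (0.051 to 0.173), and also under renewed quantile normalization, median centring and a fit to the compared groups.

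Among 8 progenitor domain factors, 2 rose and 1 fell in each region. Olig2, the factor of motor neuron and oligodendrocyte progenitors, rose by 2.10 in hemisphere and 1.47 in vermis, while Olig1 rose by 1.75 and 1.09 (limma adjusted p of at most 5.8e-05 for each). Pax6, a factor of more dorsal progenitors and of granule cells, fell by 0.55 and 0.56 (limma adjusted p = 0.0013 and 0.00103). Irx3, a neighbour of Olig2 in the spinal cord that it represses, differed by 0.34 and -0.06 and did not pass. Irx5 (0.16 and -0.36) did not pass either (limma adjusted p = 0.505 and 0.115). In the vermis Irx5 passed downward under renewed quantile normalization (limma adjusted p = 0.0261) and with the replicate number as a block (0.0436). The same held without wild type hemisphere replicate 1 (0.042). Olig2 thus had the larger SmoM2 difference in the hemisphere and Foxa2 and Dbx1 in the vermis, and none of these passed the interaction test.

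Among 16 factors of ventral neurons, Lhx3 alone passed upward, and 2 passed downward for the hemisphere and 3 for the vermis. The LIM homeodomain factor Lhx3, of motor neurons and V2 interneurons, rose by 1.1 and 0.90 (limma adjusted p = 0.000786 and 0.00326), and Lhx1 fell by 0.69 and 0.86 (0.00181 and 0.000279). Lhx5 fell in the vermis (-0.89, limma adjusted p = 0.0108). In the hemisphere it was at -0.58 (0.0797, and 0.0175 with the replicate number as a block). Other genes passed downward only in alternatives. In the vermis these were Tal1 (-0.44, limma adjusted p = 0.0623, down to 0.0119), Isl2 (-0.41, 0.0559, down to 0.0214) and Gata2 (-0.41, 0.123, down to 0.04). In the hemisphere they were Sox14 (-0.56, limma adjusted p = 0.0522, down to 0.00161) and Sim1 (-0.25, 0.127, down to 0.0243). En1 fell in the vermis by 0.56 (limma adjusted p = 0.0296), but not without replicates 2 or 3 of wild type vermis or of SmoM2 vermis (0.0859 to 0.134). Evx1, which V0 interneurons downstream of Dbx1 express in the spinal cord, read 3.39 and 3.50 in SmoM2 hemisphere and vermis against 3.74 and 3.64 in wild type, near background in every group. Its hemisphere difference of -0.35 passed (limma adjusted p = 0.0422), but not without any 1 of the 6 SmoM2 arrays or of wild type hemisphere replicates 2 or 3 (0.0522 to 0.118), nor under 3 other settings (up to 0.0925). Among 9 dorsal factors, 1 rose and 3 fell in each region. Olig3 rose by 1.48 and 2.17 (limma adjusted p = 1.35e-05 and 3.1e-07), and Ptf1a, which specifies GABAergic neurons, fell, at -1.02 and -1.13 (1.66e-05 and 6.09e-06). Pax3, a paired-domain factor, fell by 0.88 and 0.86 (limma adjusted p = 0.000113 and 0.000128). The other gene that fell was Msx2 in the hemisphere (0.0277, but 0.103 without wild type hemisphere replicate 3 and 0.127 without SmoM2 hemisphere replicate 1) and Pax7, near background, in the vermis (0.00963). With an array left out, Wnt1 passed downward in the hemisphere (limma adjusted p = 0.0899, down to 0.0406). So did Lmx1a (0.181, down to 0.0445) and Wnt3a (0.128, down to 0.0256) in the vermis. Of 5 genes that serve the release of hedgehog ligand, 1 fell in each region, Scube2 (-0.78 and -0.64, limma adjusted p = 0.00286 and 0.0095).

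**Figure D3:**
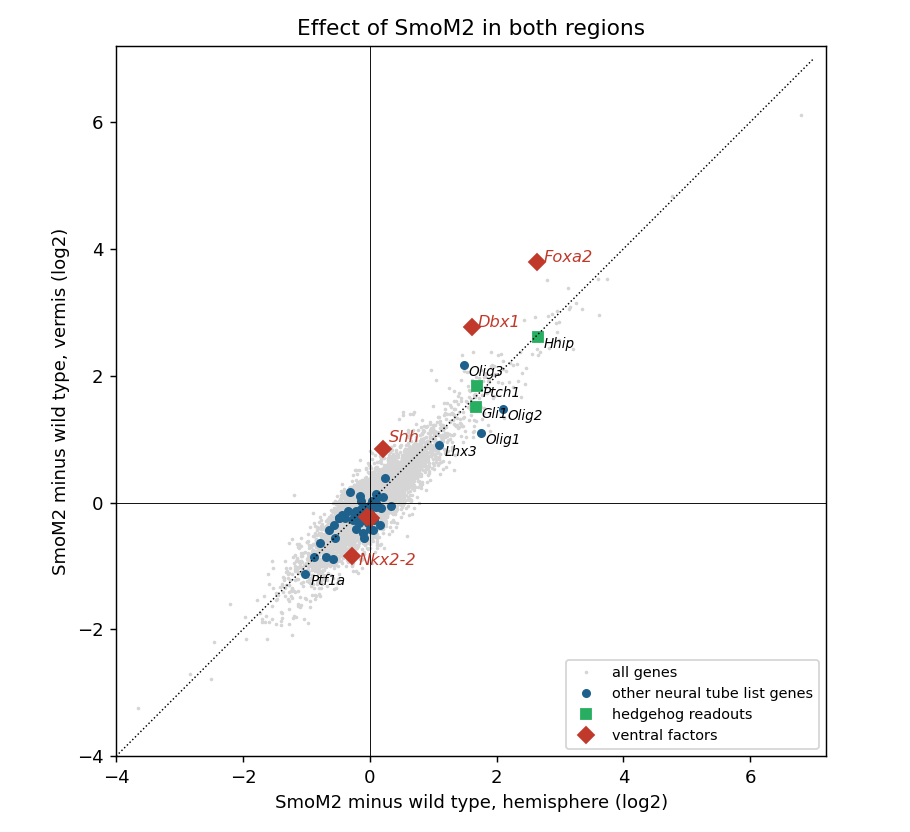
SmoM2 minus wild type on the log2 scale in the hemisphere (horizontal) and in the vermis (vertical), for all 18194 genes (grey), listed neural tube genes (blue), Gli1, Ptch1 and Hhip (green) and the 6 genes of interest (red). Foxa2, at 2.64 and 3.80, and Dbx1, at 1.61 and 2.77, lie above the dotted line of equal differences, and Olig2, at 2.10 and 1.47, lies below it.

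Markers of midbrain dopamine neurons and of endoderm and liver, in which Foxa2 is known, were mostly near background. Of the choroid plexus markers, Folr1 and Kcne2 were near background and Ttr and Clic6 were not. Of 6 genes of midbrain dopamine neurons, Nr4a2 and Ddc were expressed, 0 rose and Ddc fell (-1.02 and -1.51, limma adjusted p = 0.0139 and 0.000945). The hemisphere call of Ddc ended without SmoM2 hemisphere replicate 1 (0.0658) or 3 (0.0526). In that list Th, Slc6a3, Slc18a2 and Pitx3 were near background in all 4 groups, and the mean level of the list was 4.69 to 4.93 in SmoM2 and 4.90 to 5.23 in wild type. Of 5 genes of endoderm and liver, Afp, Alb, Gata4 and Gata6 were near background in all 4 groups, with list means of 3.49 to 3.79 in SmoM2 and 3.71 to 4.09 in wild type. None of these 5 rose, and Gata6 and Sox17 passed downward for the vermis (-0.32 and -0.61, limma adjusted p = 0.0222 and 0.0467), each losing its call in several of the alternatives (up to 0.104 and 0.194). Of 4 choroid plexus genes, Clic6 rose by 2.39 and 1.66 (limma adjusted p = 6.65e-07 and 2.17e-05). Folr1 and Kcne2 were near background in all groups, and Folr1 passed downward for the hemisphere (-0.52, limma adjusted p = 0.0389), though not in 8 of the alternatives (0.0501 to 0.144). Ttr, made by the same tissue, averaged 6.12 in SmoM2 hemisphere and 8.04 in SmoM2 vermis, the same order as Foxa2 and Dbx1 (-1.92, limma adjusted p = 1), with an SD of 3.94 in wild type hemisphere. Without wild type hemisphere replicate 1, Ttr passed between the SmoM2 regions (-1.92, limma adjusted p = 0.0452) and between the wild type regions (-2.88, 0.00465). In that fit it was also higher in SmoM2 than in wild type hemisphere (1.09, 0.0443), against -1.19 with all arrays. No other gene of the 7 marker lists passed between SmoM2 regions with other scaling or moderation, with the replicate number as a block, with only the groups compared or without any single array. The part of these cells in the Foxa2 and Dbx1 levels was not tested. The 7 markers of granule cells averaged 10.32 to 10.39 in SmoM2 and 10.47 to 10.82 in wild type, and 0 of them were near background. Atoh1, which defines the progenitors, rose by 0.82 and 0.85 (limma adjusted p = 0.000363 and 0.000236), and Neurod1, a factor of their differentiation, fell by 0.85 and 0.82 (2.16e-05 and 3.17e-05), as did Pax6. Barhl1 fell in the hemisphere (-0.97, 0.0302), but not without wild type hemisphere replicate 3 or any SmoM2 hemisphere array (0.0574 to 0.111). In the vermis it was at -0.79 (0.0621, and 0.012 with the replicate number as a block).

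Array medians lay between 4.81 and 4.87, and arrays of 1 group correlated at 0.988 to 0.996 over genes. For Actb, the 3′ probe set exceeded the 5′ one, as it does more in degraded RNA, by 0.98 ± 0.11 in SmoM2 hemisphere and 0.96 ± 0.10 in SmoM2 vermis, against 0.64 ± 0.17 in wild type hemisphere and 0.89 ± 0.01 in wild type vermis (SD, n = 3 each). The lowest mean was thus that of wild type hemisphere. The dap control of the array was also lowest in that group, at 7.77 to 9.5. It read 10.01 to 11 in SmoM2 hemisphere, 10.35 to 10.52 in SmoM2 vermis and 9.77 to 10.41 in wild type vermis. The part of either in the SmoM2 differences was not tested.

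The genes whose levels over the 12 arrays most resembled those of Foxa2 and Dbx1 were found by the root mean square difference of log2 values, each gene centred on its own mean. Nearest to Foxa2 was Saa1, an acute phase protein (0.33), followed by Rbp4, the plasma carrier of retinol (0.41), Adcy7, an adenylyl cyclase (0.45), Syt13, a synaptotagmin (0.46), and Doc2b, a calcium sensor of exocytosis (0.50). Nearest to Dbx1 was Dsc2, a desmosomal cadherin (0.21), followed by Fezf2, a transcription factor of forebrain patterning (0.34), BC034090 (0.34), Thrsp (0.39) and Actc1, the cardiac actin (0.41). Foxa2 and Dbx1 differed from each other by 0.61, which made Dbx1 the 19th nearest gene to Foxa2 and Foxa2 the 78th nearest to Dbx1. Dsc2 and BC034090 were also among the 11 genes called between SmoM2 regions, at -1.05 and -0.91 (limma adjusted p = 0.0216 and 0.0117).

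**Figure D4:**
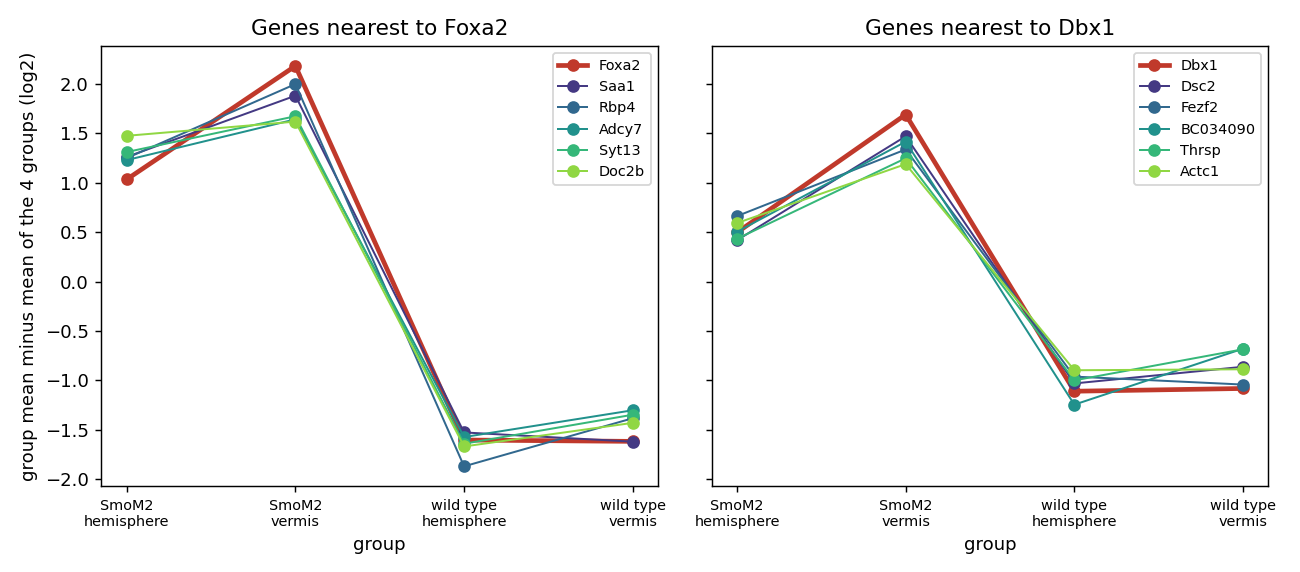
Group means of Foxa2 (left) and Dbx1 (right) with the 5 genes nearest to each, each gene centred on the mean of its 4 group means, on the log2 scale. All 12 lines are highest in SmoM2 vermis and lowest in a wild type group, and the lines join groups only as a guide.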

How the data were processed

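The deposited values are log2 expression per probe set, 1 array per pool. Partek and RMA are named in the submitters' processing notes, with no version, build or filter. RMA subtracts background, quantile-normalizes and summarises probes, and compresses differences at low signal. Probe sets were named by the platform annotation: 34958 had 1 symbol, 932 several and 9211 none, and 0 symbols changed on updating through the reference gene table. Each gene kept its brightest probe set by the mean of 12 arrays (18194 genes).

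Differences were fitted with limma 3.58.1 in R 4.3.3 (lmFit, eBayes), with 4 group means and 8 residual degrees of freedom, and adjusted by Benjamini-Hochberg over all genes of a contrast. All tests were two-sided, and the fit was tested on simulated data. Precision is limited by 3 arrays per group, and whether arrays come from separate litters or days is not given, so p-values measure the spread between these pools. The genes, lists, background level and naming rules were chosen with earlier results of these data known. Listed genes were named where they passed, by size, up to 4 per list for paralogs, progenitor domain and floor plate genes and up to 3 for other neural tube lists, with the 5 nearest genes by likeness. Of marker lists, the rule allowed the brightest 2 genes. Paralogs at background, Ntn1, Corin, Ferd3l, Lmx1b, Sulf1, Irx3, Irx5 and, in the hemisphere, Lhx5 were named after their values were seen. So were the smaller calls of the ventral and dorsal lists and all other markers. Of 65 listed neural tube genes, 4 hedgehog readouts included, 58 were measured, and those without a probe set of 1 symbol were not analysed here.

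Deviations from group means correlated at 0.14 to 0.53 between hemisphere and vermis arrays of 1 genotype and number (6 pairs). These numbers were therefore taken as pairs within a genotype in alternative fits, while the main fit has no block. Between genotypes the deviations correlated at -0.22 to 0.28 (12 pairs), and arrays were not taken as pairs there. A block by replicate number alone, across genotypes, was also run as an alternative. The labels do not say whether a pair shares mice.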

Additional observations from a re-analysis of the deposited data

How the results depend on the processing

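Over all alternatives run, Foxa2 differed between SmoM2 and wild type by 2.46 to 2.78 in the hemisphere and 3.46 to 3.99 in the vermis, and Dbx1 by 1.36 to 1.80 and 2.72 to 2.84. Counts of listed neural tube genes, readouts included, stayed within 1.5 times of 16 and 15. Testing every probe set on its own called 4481 and 4665 probe sets for SmoM2 in hemisphere and vermis and 17 for SmoM2 by region. With only the groups compared, 1753 genes passed for SmoM2 in the hemisphere and 3 for wild type by region; such a fit has no interaction.

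With the replicate number as a block, Dbx1 kept its call in SmoM2 by region (adjusted p = 0.0134, limma), and with the number within a genotype as a fixed block it was 0.0448. That fixed block and the random one were chosen after seeing the data. The random block called 39 genes for SmoM2 by region, 2 of the 6 genes described among them, and 198 for wild type by region. By region and for the interaction, the blocks changed no other call of the 6 genes than that of Foxa2 given above.

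Leaving out single arrays gave 1633 to 4276 genes for SmoM2 in the hemisphere, 1756 to 3827 in the vermis, 2 to 18 for SmoM2 by region, 8 to 58 for wild type by region and 0 to 1 for the interaction. Of the 6 genes, 0 to 2 passed for SmoM2 by region and 0 to 1 for the interaction, and 3 to 6 were near background in wild type hemisphere. With the lower quartile of all probe sets as the background level, 2 were near background in wild type hemisphere and 2 in wild type vermis. Background correction could not be varied, since the values hold no probe signals, and no slide or scan was given to block on.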
